A study of Mus musculus with 16 samples.

Results

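The genes described here are 8 inhibitory checkpoint receptors of T cells and the transcription factor Tox. They were taken by symbol: Pdcd1, Lag3, Ctla4, Tigit, Havcr2, Cd160, Btla, 4632428N05Rik (the older symbol of Vsir, which encodes VISTA) and Tox. All 9 were found among the 23479 genes of the count table, and all 9 were among the 18430 genes that passed the filter on low counts. RNA was sequenced from CD4 T cells of the spleen, isolated by removing other cells with magnetic beads, in C57BL/6 mice. The groups were mice without tumours, which the labels call day 0 (control, 5 libraries), and mice 7 days (7 libraries) or 14 days (4 libraries) after they received Eu-Myc lymphoma cells, in which an immunoglobulin enhancer drives Myc in B cells. The labels give no age, no cell dose and no mock transplant, so the transplant itself and the lymphoma cannot be told apart, and these are bulk libraries in which more cells of a type and more RNA per cell cannot be told apart either. The submitters' design counts mice in each group, and 1 library was read as 1 mouse.

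Checkpoint receptors appear on T cells after activation and are bound by ligands on other cells. PD-1 (Pdcd1), BTLA and TIGIT carry tyrosine motifs in their tails that recruit phosphatases, CTLA-4 takes CD80 and CD86 away from the costimulatory receptor CD28, and LAG-3 binds MHC class II. In a spleen without infection, regulatory T cells are the main CD4 carriers of CTLA-4 and TIGIT, and follicular helper T cells of PD-1. VISTA is already high on naive CD4 T cells. Tox, a DNA-binding protein of the HMG box family, is known from T cell development, follicular helper cells and exhausted T cells.

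The libraries held 14493764 to 27340070 gene counts, and the day 14 libraries, at most 17067236, were shallower than every control library, at least 21610411. Reads outside gene models made up 47.1% to 56.7% of all lines in controls, 54.6% to 68% at day 7 and 54.4% to 69.8% at day 14. Cd4 averaged 1194 ± 204 CPM at day 14 and 1261 ± 329 CPM in controls (SD, n = 4 and 5, CPM being counts scaled to a common library size with TMM factors), and Cd3e averaged 1129 ± 320 and 1386 ± 291 CPM, so the defining transcripts of the labelled cell type were present. Control libraries 1 and 2 stood apart, with 117 and 549 CPM of the neutrophil gene S100a8 against at most 7.57 CPM in the other controls, and with 1380 and 3252 CPM of Mki67, a gene of dividing cells, against at most 357 CPM. Day 14 library 4 stood apart from the other day 14 libraries, with summed neutrophil markers of 1378 CPM against 15.8 to 48.3 CPM, macrophage markers of 99.1 against 25.2 to 35.4 CPM, dendritic cell markers of 33.4 against 5.04 to 12 CPM and dividing cell markers of 1819 against 349 to 1117 CPM. The members' values at day 14 against control are also given without control libraries 1 and 2. Without those 2 controls the T cell receptor chain genes Cd3d and Cd3g were called lower at day 14.

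The promoter windows of 3 members are shown first. Pdcd1 and 4632428N05Rik were called at day 14, and Tigit had a difference of similar size to that of Pdcd1 that was not called. RefSeq's table (GRCm38.p6) held promoter windows, 250 bases before to 50 after the gene start, for 7 of the 9 members, and the files' build mm10 is the same assembly. Capitals mark matches to GGAAA, the core bound by NFAT factors, which carry calcium signals from the T cell receptor; in these windows all matches lie on the opposite strand and so read TTTCC.
Pdcd1, chr1:94052504-94052803, minus strand: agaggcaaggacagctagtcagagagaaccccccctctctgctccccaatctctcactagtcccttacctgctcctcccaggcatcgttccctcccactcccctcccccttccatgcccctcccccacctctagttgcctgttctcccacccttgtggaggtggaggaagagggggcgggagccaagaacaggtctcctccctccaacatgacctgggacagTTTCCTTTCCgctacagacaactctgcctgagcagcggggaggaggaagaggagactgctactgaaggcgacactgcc
Tigit, chr16:43664135-43664434, minus strand: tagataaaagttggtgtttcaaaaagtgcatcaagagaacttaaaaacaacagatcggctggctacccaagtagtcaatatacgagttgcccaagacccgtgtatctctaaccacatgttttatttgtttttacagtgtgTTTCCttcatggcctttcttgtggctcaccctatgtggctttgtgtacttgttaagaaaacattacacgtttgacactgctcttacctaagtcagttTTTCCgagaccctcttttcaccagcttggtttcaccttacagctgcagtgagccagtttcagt
4632428N05Rik (Vsir), chr10:60346601-60346900, plus strand: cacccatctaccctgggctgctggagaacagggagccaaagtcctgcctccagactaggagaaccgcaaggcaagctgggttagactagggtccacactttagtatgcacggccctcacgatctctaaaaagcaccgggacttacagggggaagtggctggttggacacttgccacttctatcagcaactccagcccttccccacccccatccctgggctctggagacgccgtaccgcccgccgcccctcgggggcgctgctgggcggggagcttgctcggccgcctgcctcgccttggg

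In the Pdcd1 window the letters stood at -28 and -23 from the gene start, and in the Tigit window at -110 and -13. The window of 4632428N05Rik held none. Positions count from the start that RefSeq gives. Among the members whose windows are not printed, Ctla4 had the letters at -144. Its window, 60908775 to 60909074, lies inside the gene span given below and not at its start. Cd160 had a window at the start given below, 96829302 to 96829601, without the letters. Another Cd160 window, 96814472 to 96814771, lies inside its span and had the letters at -145. Neither gene was called at day 14. Btla and Havcr2 had none. GGAAA occurs on either strand in 61.3% of the 32851 promoter windows of the table, so a match is common. The AP-1 letters TGANTCA, present in 7.81% of all windows, were found for Havcr2 alone among the members with a window, and the NR4A letters AAAGGTCA, present in 1.51%, for none. None of the 3 motifs overlapped another in these windows.

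Day 14 against control asked which checkpoint genes differ late after transplant. Pdcd1 rose and 4632428N05Rik fell, and the other 7 members did not pass the test. A gene was called where edgeR's quasi-likelihood test gave a p under 0.05 after Benjamini-Hochberg adjustment over all 18430 genes. Lag3 and Tigit had changes about as large as that of Pdcd1 but with a wider spread between mice. Of the 9 members, 1 was called higher and 1 lower, where the share over all tested genes was 3.13% in either direction, 1.33% higher and 1.8% lower. The median log2 change was 0.44 over the members and 0.12 over all tested genes, and 7 of 9 members had a positive change against 57.7% of all genes.

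Pdcd1 (chromosome 1, 94038305 to 94052553, minus strand, GRCm38) encodes PD-1, the receptor of the ligands PD-L1 and PD-L2. It stood at 21.3, 20.7, 33.6 and 34.5 CPM in day 14 libraries 1 to 4, against 4.04, 3.75, 6.65, 10.2 and 13.8 CPM in control libraries 1 to 5. All 4 day 14 values exceeded the highest control value, which held for 5.24% of all genes. The means were 27.5 ± 7.54 CPM at day 14 and 7.69 ± 4.29 CPM in controls (SD, n = 4 and 5), and the log2 change was 1.84 with an SE of 0.39 (edgeR adjusted p = 0.0233). Without control libraries 1 and 2 the log2 change was 1.43 ± 0.38 (edgeR adjusted p = 0.0386), and these 2 were the lowest libraries. The call was lost without day 14 library 3 or 4 or control library 1 or 3 (edgeR adjusted p = 0.0878, 0.0641, 0.0505 and 0.0673), with log2 changes of 1.68 to 1.81. It was also lost when only the 2 groups compared were fitted (1.84, edgeR adjusted p = 0.0852).

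Lag3 (chromosome 6, 124904361 to 124911705, minus strand) encodes an MHC class II receptor related to CD4. It stood at 16.1, 13.1, 35.7 and 49.6 CPM at day 14, against 9.25, 4.11, 4.90, 9.52 and 16.8 CPM in controls. Day 14 libraries 3 and 4 were above every control, while libraries 1 and 2 lay within the control range. The log2 change of 1.68 ± 0.50 (SE) did not pass (edgeR adjusted p = 0.068). Tigit (chromosome 16, 43648867 to 43664146, minus strand), whose product competes with the activating receptor CD226 for the ligand CD155, stood at 21.9, 15.3, 33.5 and 44.3 CPM at day 14, against 17.3, 7.78, 6.61, 4.66 and 8.89 CPM in controls. Of the 4 day 14 libraries, 3 were above every control. The log2 change of Tigit, 1.67 ± 0.48 (SE), did not pass either (edgeR adjusted p = 0.0623). Without control libraries 1 and 2 Tigit passed (log2 change 2.09 ± 0.53, edgeR adjusted p = 0.0340) and Lag3 did not (1.46 ± 0.55, edgeR adjusted p = 0.107).

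Lag3 and Tigit lay on either side of the threshold depending on the tool and filter. With DESeq2 both passed (log2 changes of 1.72 and 1.73, DESeq2 adjusted p = 0.00856 and 0.0062), as they did with limma-voom (limma adjusted p = 0.0432 and 0.0339) and when genes under a mean of 5 CPM were left out of the edgeR test (edgeR adjusted p = 0.0483 and 0.0419). In Pdcd1, Lag3 and Tigit the day 14 libraries 3 and 4 were higher than libraries 1 and 2. Without day 14 library 4 the log2 change of Lag3 was 1.27 ± 0.51 (edgeR adjusted p = 0.170) and that of Tigit 1.38 ± 0.50 (edgeR adjusted p = 0.140).

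4632428N05Rik (Vsir, chromosome 10, 60346851 to 60372684, plus strand) encodes VISTA, a checkpoint molecule of resting T cells and myeloid cells. It stood at 247, 352, 303 and 251 CPM in day 14 libraries 1 to 4, against 387, 327, 467, 395 and 404 CPM in control libraries 1 to 5. Day 14 libraries 1, 3 and 4 lay below every control library and library 2 within the control range, while complete separation below control held for 2.85% of all genes and for none of the members. The means were 288 ± 49.5 CPM at day 14 and 396 ± 50 CPM in controls, and the log2 change was -0.46 with an SE of 0.12 (edgeR adjusted p = 0.0463). Without control libraries 1 and 2 the log2 change was -0.55 ± 0.13 (edgeR adjusted p = 0.0226). The call was lost under RLE scaling (edgeR adjusted p = 0.0679), with library totals (-0.26, edgeR adjusted p = 0.113), with no filter (edgeR adjusted p = 0.0576) and with the filter at a mean of 5 CPM (edgeR adjusted p = 0.0657). It was also lost without day 14 library 1, 3 or 4 or control library 1, 3, 4 or 5, with log2 changes of -0.48 to -0.34 and edgeR adjusted p-values of 0.0518 to 0.282.

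**Figure D1:**
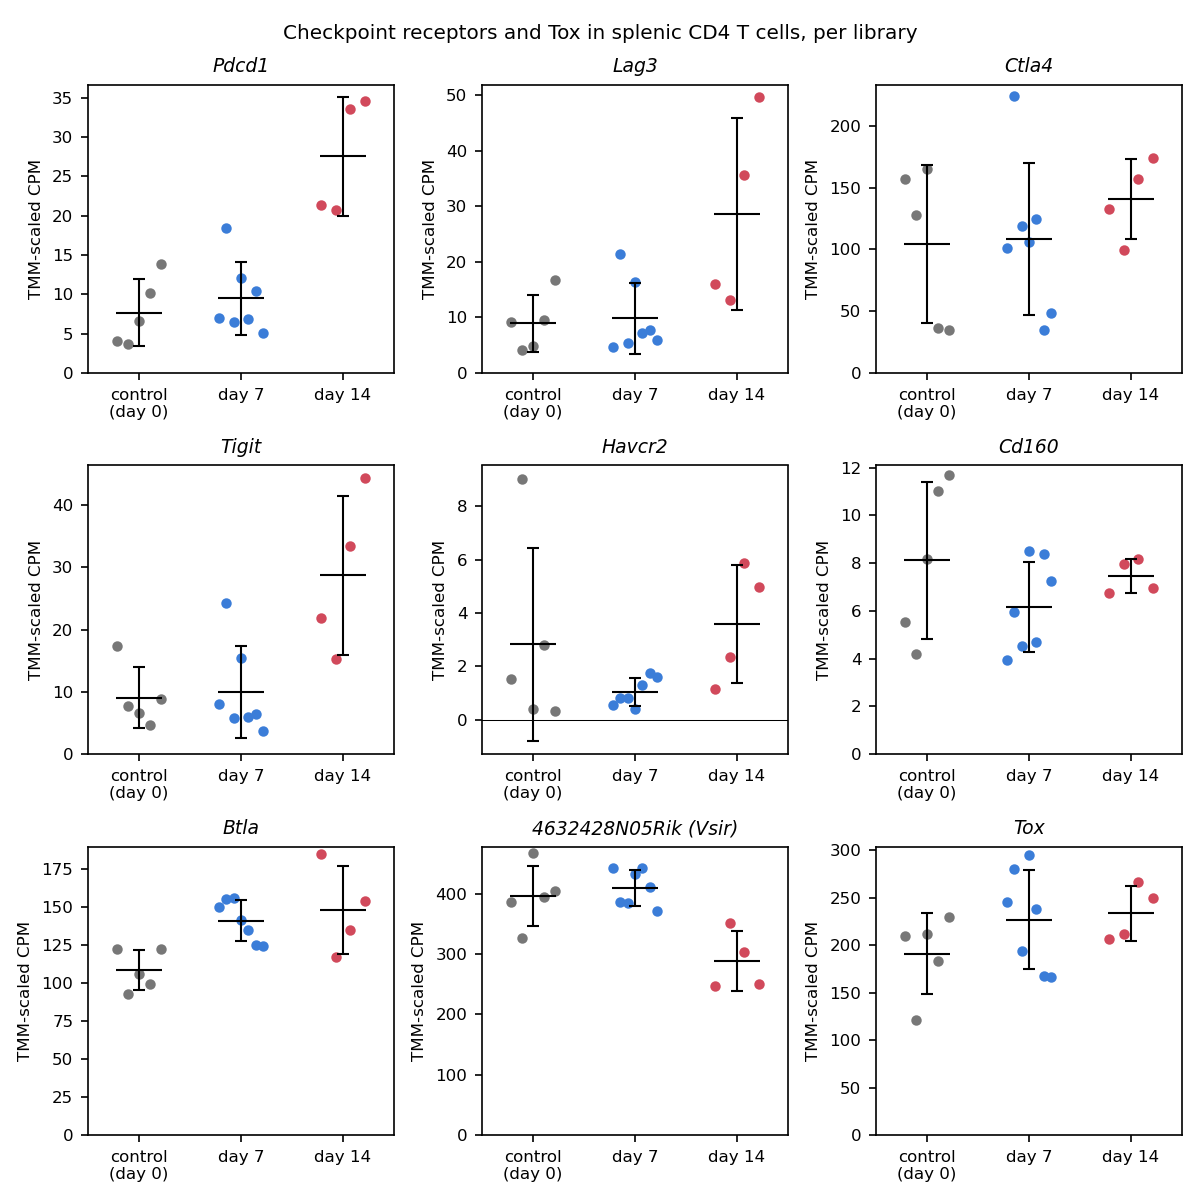
Level of each of the 9 genes in TMM-scaled CPM (vertical axes, linear, starting at or below 0) in every library of the control, day 7 and day 14 groups, with points for libraries in order of their number and black lines for the mean and SD. Pdcd1 at day 14 (20.7 to 34.5 CPM) lies above all other libraries, and 4632428N05Rik at day 14 (247 to 352 CPM) lies below all day 7 libraries.

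Ctla4 (chromosome 1, 60887000 to 60915832, plus strand) encodes the CD28 relative that binds CD80 and CD86. It stood at 133, 99.9, 157 and 174 CPM at day 14, against 157, 128, 165, 36.1 and 35.1 CPM in controls. The controls fell far apart, with libraries 4 and 5 low, and the day 14 libraries covered the upper part of their range. The log2 change was 0.44 ± 0.48 (SE), edgeR adjusted p = 0.58, and 0.84 ± 0.53 without control libraries 1 and 2 (edgeR adjusted p = 0.291). Btla (chromosome 16, 45224315 to 45257670, plus strand), the receptor of HVEM, stood at 185, 117, 135 and 154 CPM at day 14, against 122, 92.5, 106, 99.4 and 122 CPM in controls. Of the 4 day 14 libraries, 3 were above every control, and the log2 change was 0.45 ± 0.13 (edgeR adjusted p = 0.0581). Btla passed with DESeq2 (DESeq2 adjusted p = 0.0164) and with the filter at a mean of 5 CPM (edgeR adjusted p = 0.0302), but not with limma-voom. Its log2 change without control libraries 1 and 2 was 0.43 ± 0.14 (edgeR adjusted p = 0.0695).

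Tox (chromosome 4, 6686353 to 6991557, minus strand) stood at 206, 212, 266 and 250 CPM at day 14, against 209, 121, 212, 183 and 230 CPM in controls. The groups overlapped, and the log2 change was 0.29 ± 0.19 (SE), edgeR adjusted p = 0.356, and 0.16 ± 0.18 without control libraries 1 and 2 (edgeR adjusted p = 0.547). Cd160 (chromosome 3, 96798763 to 96829351, minus strand), another HVEM receptor, ranged over 6.73 to 8.15 CPM at day 14 and 4.20 to 11.7 CPM in controls (log2 change -0.12 ± 0.31, edgeR adjusted p = 0.811), and its log2 change without control libraries 1 and 2 was -0.47 ± 0.28 (edgeR adjusted p = 0.277). Havcr2 (chromosome 11, 46454935 to 46481255, plus strand), which encodes TIM-3, was the scarcest member, with 20 to 113 reads per library at day 14 and 8 to 200 reads in controls. Its levels were 1.15, 2.37, 5.87 and 4.96 CPM at day 14, against 1.54, 9.04, 0.398, 2.81 and 0.344 CPM in controls (log2 change 0.35 ± 0.76, edgeR adjusted p = 0.788). The highest control value was that of library 2, and without control libraries 1 and 2 the log2 change of Havcr2 was 1.60 ± 0.78 (edgeR adjusted p = 0.184).

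The share of reads outside gene models moved with the groups, and its part in these results was not tested beyond the following values. With that share as a covariate the log2 change of Pdcd1 at day 14 was 1.70 ± 0.58 (edgeR adjusted p = 0.524) and that of 4632428N05Rik -0.23 ± 0.14 (edgeR adjusted p = 0.765), and 1 gene passed in the whole table. In day 14 library 2 that share was 54.4%, within the control range. In that 1 library Pdcd1, at 20.7 CPM, was above every control. There 4632428N05Rik, at 352 CPM, was above control library 2 and below the other controls.

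**Figure D2:**
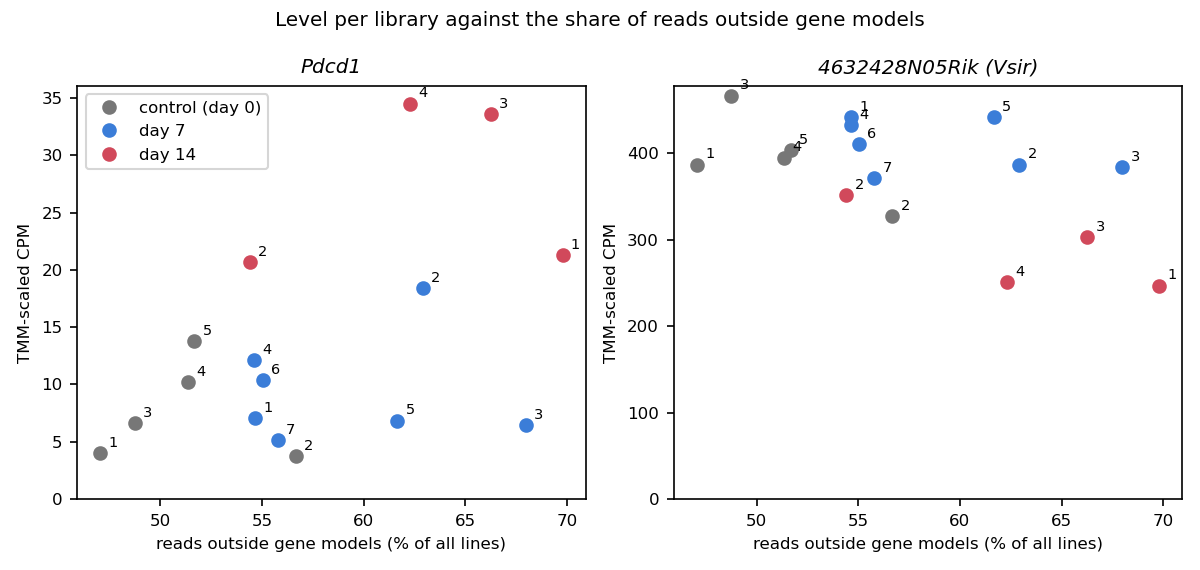
Level of Pdcd1 (left) and 4632428N05Rik (right) in TMM-scaled CPM (vertical axes, from 0) against the percentage of all reads that fell outside gene models (horizontal axes), 1 numbered point per library, coloured by group. Day 14 library 2, at 54.4%, has 20.7 CPM of Pdcd1 and 352 CPM of 4632428N05Rik, and the other day 14 libraries lie at 62.3% or more.

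Day 7 against control asked whether the genes differ early after transplant. None of the 9 members passed with edgeR at day 7, where the share over all genes was 0.0109%. At an unadjusted p under 0.05 there were 2 members, Btla and Havcr2, and 1553 genes with positive and 2337 with negative changes over the whole table. DESeq2 called 1 member, Btla, higher, and limma-voom none. The median log2 change was 0.14 over the members and 0.07 over all genes. Both comparisons with control use the same 5 control libraries.

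Btla stood at 150, 155, 156, 141, 135, 125 and 124 CPM in day 7 libraries 1 to 7 (median 141), against 92.5 to 122 CPM in controls (median 106). The lowest day 7 value exceeded the highest control value, which held for 0.988% of all genes. The means were 141 ± 13.4 CPM at day 7 and 108 ± 13.2 CPM in controls (SD, n = 7 and 5), and the log2 change of 0.38 ± 0.11 did not pass (edgeR adjusted p = 0.0813). With DESeq2 the adjusted p was 0.0310, and without control library 5 edgeR gave a log2 change of 0.43 with an adjusted p of 0.0387. Without that library 429 genes were called higher over the whole table, against 2 with all libraries. The log2 change of Btla without control libraries 1 and 2 was 0.37 (edgeR adjusted p = 0.313).

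Havcr2 ranged over 0.392 to 1.75 CPM at day 7 (median 0.835) and 0.344 to 9.04 CPM in controls (median 1.54), a log2 change of -1.44 ± 0.67 (edgeR adjusted p = 0.223). Without control libraries 1 and 2 its log2 change was -0.18 ± 0.68. Pdcd1 ranged over 5.12 to 18.4 CPM at day 7 (median 7.05) and 3.75 to 13.8 CPM in controls (log2 change 0.30 ± 0.34, edgeR adjusted p = 0.665). Lag3 ranged over 4.70 to 21.4 CPM at day 7 (median 7.17) and 4.11 to 16.8 CPM in controls (0.14 ± 0.44, edgeR adjusted p = 0.896). Tigit ranged over 3.65 to 24.3 CPM at day 7 (median 6.39) and 4.66 to 17.3 CPM in controls (0.14 ± 0.42, edgeR adjusted p = 0.895). In these 3 genes day 7 library 2 was the highest of its group, with 18.4, 21.4 and 24.3 CPM, and library 4 came next, with 12.1, 16.3 and 15.4 CPM. The follicular helper receptor gene Cxcr5 was also highest in these libraries at day 7, with 52.5 and 47.2 CPM.

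The remaining members overlapped with the controls at day 7. 4632428N05Rik ranged over 371 to 442 CPM at day 7 and 327 to 467 CPM in controls (log2 change 0.05 ± 0.10, edgeR adjusted p = 0.834). Ctla4 covered 34.7 to 224 CPM at day 7 and 35.1 to 165 CPM in controls (0.05 ± 0.42, edgeR adjusted p = 0.963). Tox covered 166 to 295 CPM at day 7 and 121 to 230 CPM in controls (0.24 ± 0.17, edgeR adjusted p = 0.427), and Cd160 3.95 to 8.50 CPM and 4.20 to 11.7 CPM (-0.39 ± 0.27, edgeR adjusted p = 0.428).

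Day 14 against day 7 tested whether the later time differs from the earlier one. Pdcd1 rose and 4632428N05Rik fell here too, 1 member called higher and 1 lower, where the share over all genes was 0.966% in either direction, 0.412% higher and 0.553% lower. The day 14 libraries are shared with the comparison above. Pdcd1 averaged 27.5 ± 7.54 CPM at day 14 and 9.48 ± 4.61 CPM at day 7 (SD, n = 4 and 7), and the log2 change was 1.53 with an SE of 0.35 (edgeR adjusted p = 0.0450). The lowest day 14 library, at 20.7 CPM, was above the highest day 7 library, at 18.4 CPM, which held for 1.77% of all genes. 4632428N05Rik averaged 288 ± 49.5 CPM at day 14 and 410 ± 29.8 CPM at day 7, and the log2 change was -0.51 with an SE of 0.11 (edgeR adjusted p = 0.0400). Its highest day 14 library, at 352 CPM, was below the lowest day 7 library, at 371 CPM, which held for 2.78% of all genes.

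Each call was near the threshold. That of Pdcd1 was lost without day 14 library 1, 3 or 4 or day 7 library 1, 3, 4, 5, 6 or 7, with log2 changes of 1.40 to 1.64 and edgeR adjusted p-values of 0.0628 to 0.204. That of 4632428N05Rik was lost without day 14 library 1, 3 or 4 or day 7 library 1, 3, 4, 5 or 6, with log2 changes of -0.54 to -0.45 and edgeR adjusted p-values of 0.063 to 0.207, and also under RLE scaling (edgeR adjusted p = 0.0522) and with library totals (edgeR adjusted p = 0.0634). Changes at least as large as that of Pdcd1 in fold, but not called, were those of Havcr2 (log2 change 1.78 ± 0.70, edgeR adjusted p = 0.23) and Lag3 (1.54 ± 0.45, edgeR adjusted p = 0.105), and Tigit was close to it (1.53 ± 0.44, edgeR adjusted p = 0.0957). Ctla4 (0.38 ± 0.44), Cd160 (0.27 ± 0.28), Btla (0.07 ± 0.12) and Tox (0.04 ± 0.17) had edgeR adjusted p-values of 0.694 to 0.920. Btla averaged 148 ± 29 CPM at day 14 and 141 ± 13.4 CPM at day 7, and these libraries overlapped.

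**Figure D3:**
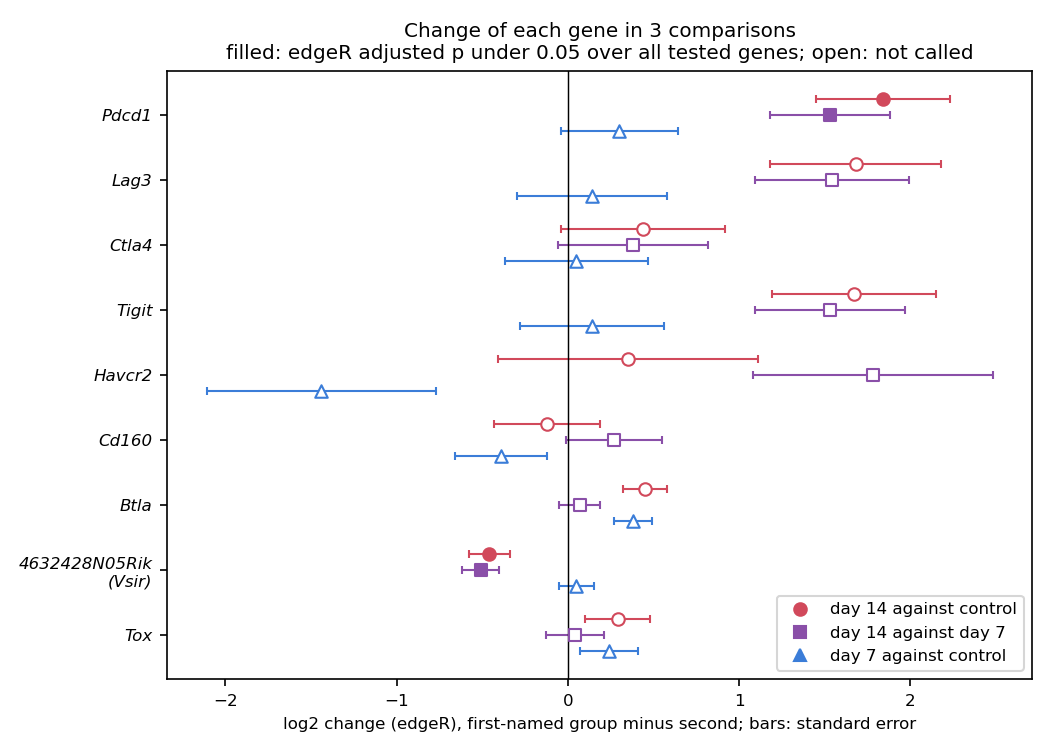
Log2 change of the 9 genes with its standard error (horizontal axis) in the comparisons day 14 against control, day 14 against day 7 and day 7 against control, with filled symbols for an edgeR adjusted p under 0.05 over all tested genes. Pdcd1 (1.84 and 1.53) and 4632428N05Rik (-0.46 and -0.51) carry the filled symbols, both in the comparisons of day 14.

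Levels were compared between genes per kilobase of exon, from the union of exons in GENCODE's annotation of GRCm38, as CPM per kilobase. In controls the order was 4632428N05Rik (78.9 ± 9.96), Ctla4 (44.8 ± 27.5), Btla (31.9 ± 3.90), Tox (25.1 ± 5.57), Tigit (9.84 ± 5.28), Lag3 (4.23 ± 2.40), Pdcd1 (3.99 ± 2.23), Cd160 (3.08 ± 1.24) and Havcr2 (1.04 ± 1.33). The libraries of each of these genes overlapped in range with those of the next. At day 7 the order was the same except that Pdcd1 (4.91 ± 2.39) preceded Lag3 (4.66 ± 3.06). At day 14 Ctla4 (60.6 ± 13.8) and 4632428N05Rik (57.5 ± 9.88) led with overlapping ranges, followed by Btla (43.5 ± 8.53), Tigit (31.3 ± 13.9), Tox (30.7 ± 3.84), Pdcd1 (14.3 ± 3.91), Lag3 (13.6 ± 8.16), Cd160 (2.82 ± 0.269) and Havcr2 (1.32 ± 0.808). At day 14 the ranges of Tox and Pdcd1, of Lag3 and Cd160 and of Cd160 and Havcr2 did not overlap. The annotation used for counting was not given in the sources used here, so the lengths may differ from those behind the counts.

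The members did not vary together across the libraries as 1 block. Correlations below are Pearson's r of log2(CPM + 1) over the 16 libraries, which differ in depth and in group, and are descriptions. Pdcd1 and Lag3 had r = 0.90 (Spearman's rho 0.85), 0.82 after the group means were removed and 0.82 without the 2 libraries farthest from the median of Pdcd1. Lag3 and Tigit had r = 0.86 (rho 0.72), and 0.72 with group means removed. Pdcd1 and Tigit had r = 0.76 (rho 0.68), which was 0.46 with group means removed. Tox had r of 0.62, 0.66 and 0.62 with Pdcd1, Lag3 and Tigit after group means were removed. Ctla4 had r = 0.59 with Tigit and -0.16 with Pdcd1 on the same measure, and -0.65 with Cd160. Havcr2 had negative values with 7 members, down to -0.58 with Btla.

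**Figure D4:**
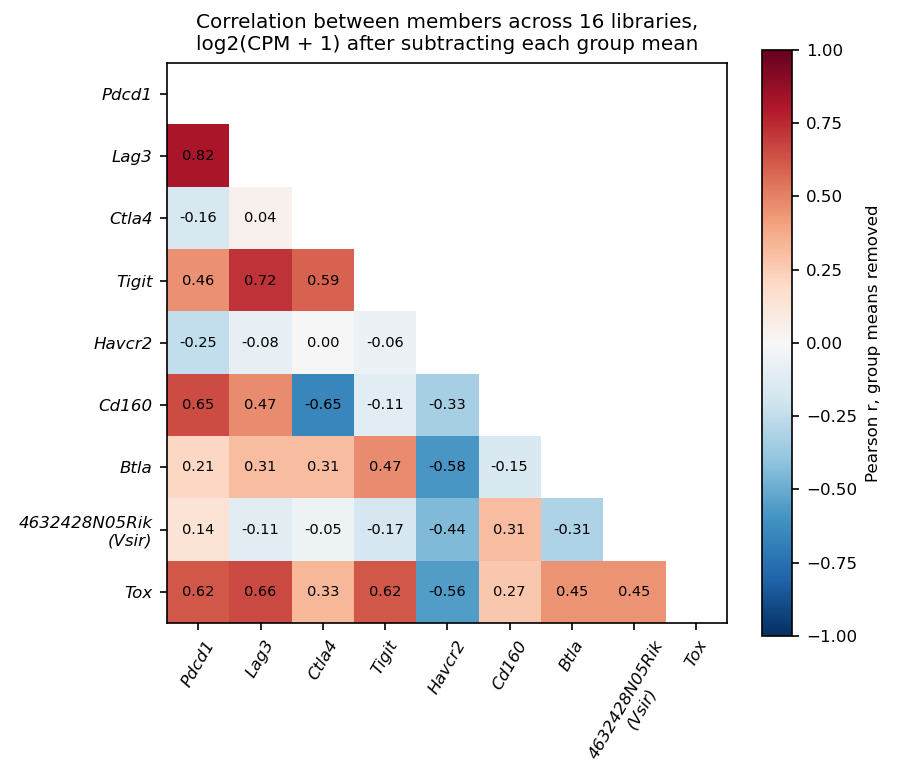
Pearson's r between each pair of the 9 genes over 16 libraries, on log2(CPM + 1) after each group's mean was subtracted, with colour from blue (-1) to red (1). The highest values are 0.82 for Pdcd1 and Lag3 and 0.72 for Lag3 and Tigit, and the lowest is -0.65 for Ctla4 and Cd160.

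Among 9287 genes that averaged 5 CPM or more, those most like each member over the 16 libraries were named, up to 2 per member. Predicted genes and clone names, such as Gm and Rik numbers, were passed over, as were symbols of C or D followed by a number. The 9287 include the members that reach that level under a gene name. Pdcd1 was close to Syt11 (r = 0.94, rho 0.92). Lag3 was closest to Ikzf2 (0.93, rho 0.88), which encodes the regulatory T cell factor Helios, and Spock2 (0.92, rho 0.91). Tigit was close to B4galnt4 (0.93, rho 0.88). Ctla4 was closest to Rgs1 (0.92, rho 0.89), a regulator of G protein signalling, and to the transcription factor Bhlhe40 (0.90, rho 0.86). Tox was closest to Nfatc1 (0.89, rho 0.87), an NFAT factor, and Atxn7l1 (0.89, rho 0.83). Btla was closest to Zc3h6 (0.93, rho 0.92) and Pde11a (0.89, rho 0.81), and 4632428N05Rik to Sepp1 (0.95, rho 0.91), the older symbol of the selenium carrier gene Selenop, and Spice1 (0.94, rho 0.87). Cd160 was closest to Ccdc134 (0.85, rho 0.69) and Psmb3 (0.83, rho 0.81), and Havcr2 to Gas8 (0.87, rho 0.63) and Cntln (0.87, rho 0.79). After group means were removed r was 0.80 to 0.96 for these 16 pairs.

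These genes were chosen for likeness over all libraries, so their direction of change is no separate result. Sepp1 averaged 198 ± 45.4 CPM at day 14 and 411 ± 125 CPM in controls (log2 change -1.05, edgeR adjusted p = 0.0227), a call lost without day 14 library 4 (edgeR adjusted p = 0.0657). Syt11 averaged 59.4 ± 8.02 CPM at day 14 and 28.1 ± 7.48 CPM in controls (log2 change 1.08, edgeR adjusted p = 0.00815).

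The ligands of these receptors were measured in the same T cell libraries. Of 16 ligand genes tested, 1 rose and 3 fell at day 14 against control, with a median log2 change of -0.17. Pdcd1lg2, which encodes the PD-1 ligand PD-L2, rose, averaging 11.1 ± 2.36 CPM at day 14 and 4.66 ± 1.33 CPM in controls (log2 change 1.25 ± 0.27, edgeR adjusted p = 0.0259), while Cd274, which encodes PD-L1, stood at 73.5 ± 17.1 and 74.7 ± 12.5 CPM (-0.02 ± 0.19, edgeR adjusted p = 0.944). The 3 that fell were H2-Aa, H2-Ab1 and H2-Eb1, MHC class II chains and so ligands of LAG-3, which B cells and dendritic cells carry. They averaged 0.917 ± 0.132, 2.42 ± 1.71 and 1.29 ± 0.818 CPM at day 14, against 16.6 ± 11.3, 39.8 ± 26.8 and 20.1 ± 11.9 CPM in controls, with log2 changes of -4.17, -4.05 and -3.95 (edgeR adjusted p = 0.0323, 0.0438 and 0.0295). Of these 4, Pdcd1lg2, H2-Aa and H2-Eb1 were called without control libraries 1 and 2 and H2-Ab1 was not (-3.17, edgeR adjusted p = 0.0661), and without day 14 library 4 none of the 4 was (edgeR adjusted p = 0.0641 to 0.0733). No ligand gene was called at day 7 against control or at day 14 against day 7. At day 14 against control 7 of 8 B cell markers had negative changes and 1 a positive one (median log2 change -1.36). Of 6 dendritic cell markers 4 were negative and 2 positive (median -0.74). Without control libraries 1 and 2 these medians were -0.98 and 0.67. The part of these cells in the MHC class II levels was not tested.

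None of the 8 activating partners and family relatives, such as Cd28, Icos, Cd226 and Cd96, was called in any of the 3 comparisons with all libraries, and without control libraries 1 and 2 Cd96 was called lower at day 14. Cd28 stood at 234 ± 23.3 CPM at day 14 and 348 ± 132 CPM in controls (log2 change -0.57 ± 0.24, edgeR adjusted p = 0.178). Of 15 other inhibitory receptors, 1 rose and 1 fell at day 14, both against control and against day 7. Klrg1, an inhibitory lectin of effector cells, averaged 7.26 ± 2.49 CPM at day 14 and 2.13 ± 0.609 CPM in controls (1.76 ± 0.45, edgeR adjusted p = 0.0424), and Klrd1, the CD94 chain of NKG2 receptors, averaged 9.90 ± 3.65 and 21.7 ± 5.91 CPM (-1.13 ± 0.24, edgeR adjusted p = 0.0236). Without day 14 library 4 neither was called against control (edgeR adjusted p = 0.0779 and 0.0641), and without control libraries 1 and 2 Lilrb4 was called higher as well. None of the 17 genes for inhibitory signalling, such as the phosphatases Ptpn6 and Ptpn11 and the ubiquitin ligase Cblb, was called in any comparison with all libraries, and Dok2 was called lower at day 14 without control libraries 1 and 2. Dgka, the most abundant of them, stood at 1759 ± 300 CPM at day 14 and 1713 ± 421 CPM in controls (0.04 ± 0.17, edgeR adjusted p = 0.895).

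Of 19 Tox relatives and transcription factors linked to exhaustion, 3 rose at day 14 against control and the same 3 against day 7, and none was called at day 7. They were Prdm1, which encodes Blimp-1 (20.2 ± 6.14 CPM at day 14 and 11 ± 2.42 CPM in controls, edgeR adjusted p = 0.0442), Maf (169 ± 59.0 and 68.3 ± 8.84 CPM, edgeR adjusted p = 0.00817) and Ikzf2 (212 ± 54.3 and 112 ± 16.2 CPM, edgeR adjusted p = 0.0248). The list's median log2 change was -0.02 at day 14 against control. Without day 14 library 4 only Maf was called against control (log2 change 1.06, edgeR adjusted p = 0.0347) and none against day 7. Id3 was called lower against control without control libraries 1 and 2. Tox2, a relative of Tox, stood at 23.6 ± 13 CPM at day 14 and 6.31 ± 5.56 CPM in controls, a log2 change of 1.90 ± 0.56 with an edgeR adjusted p of 0.0653. Nr4a1 and Nr4a3, which T cell receptor signals induce, stood at 111 ± 12.5 and 64.9 ± 15.4 CPM at day 14, against 259 ± 135 and 167 ± 101 CPM in controls (edgeR adjusted p = 0.0597 and 0.0743).

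Markers of CD4 subsets were tested in the same libraries. Of 6 regulatory T cell markers 2 rose at day 14 against control, Foxp3 and Ikzf2, the second of which is also in the list of transcription factors above, and their summed level was 703 to 1248 CPM at day 14 and 476 to 607 CPM in controls. Foxp3, their defining factor, stood at 264, 397, 556 and 264 CPM in day 14 libraries 1 to 4, against 152 to 239 CPM in controls (log2 change 0.92 ± 0.19, edgeR adjusted p = 0.0194). Of 6 follicular helper markers 1 rose and 5 did not pass. It was Cxcr5, at 40.0, 46.7, 78.9 and 69.9 CPM at day 14 against 14.5 to 27.5 CPM in controls (1.52 ± 0.31, edgeR adjusted p = 0.0186). Without day 14 library 4 Foxp3 was called (1.04, edgeR adjusted p = 0.0215), while Cxcr5 was not (1.43, edgeR adjusted p = 0.0566). The summed follicular helper markers covered 111 to 192 CPM at day 14 and 95.0 to 137 CPM in controls.

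Ratios within a library set a receptor against such a marker. The log2 ratio of Ctla4 to Foxp3 was -1.34 ± 0.66 at day 14 and -1.19 ± 1.07 in controls (exact permutation test, two-sided, p = 0.794, adjusted p = 0.893 over 9 ratio tests). The ratio of Tigit to Foxp3 was -3.67 ± 0.87 at day 14 and -4.39 ± 0.62 in controls (exact permutation p = 0.206, adjusted p = 0.619). The ratio of Pdcd1 to Cxcr5 was -1.06 ± 0.15 at day 14 and -1.40 ± 0.70 in controls (exact permutation p = 0.46, adjusted p = 0.893), and it was -1.58 ± 0.27 at day 7 (day 14 against day 7: exact permutation p = 0.0182, adjusted p = 0.164). None of the 9 ratio differences passed. The group sizes limit the one-tailed permutation p to 0.00794 or more at day 14 against control. The limits are 0.00126 at day 7 against control and 0.00303 at day 14 against day 7. The tests were two-sided, so their smallest p-values are larger than these limits. After adjustment over 9 tests, 1 ratio alone could not pass in either comparison of day 14, even with fully separated groups. The lack of a pass there therefore does not show equal change.

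Transcripts of other cells differed widely between libraries. B cell markers, whose cells also express Btla, summed to 17.3 to 36.8 CPM at day 14 and 14.2 to 71.6 CPM in controls, and 1 of 8 fell at day 14, Cd79a, a call lost without day 14 library 4 (edgeR adjusted p = 0.0675). Cd22 was called higher without control libraries 1 and 2. The 2 CD8 genes summed to 5.68 to 14.3 and 8.72 to 17.3 CPM. Natural killer markers, which go with Cd160 and Tigit, summed to 12.3 to 24.6 CPM at day 14 and 17.2 to 24.9 CPM in controls, and 1 of the 6 had no reads in any group. Macrophage and dendritic cell markers, which go with Havcr2 and 4632428N05Rik, summed to 25.2 to 99.1 and 5.04 to 33.4 CPM at day 14, against 9.36 to 583 and 7.09 to 42.6 CPM in controls. Their highest sums were in control library 2, which also had the highest Havcr2, and in day 14 library 4 at that time, and none of these genes was called with all libraries. Cd68 was called higher at day 14 without control libraries 1 and 2. The neutrophil sum was 15.8 to 1378 CPM at day 14 and 17.2 to 2072 CPM in controls. Of its 8 genes, 3 fell at day 14 against control (S100a8, S100a9 and Ngp) and 2 were called higher against day 7 (Mpo and Elane). Both calls rested on 1 library at day 14: without library 4 the log2 changes of Mpo and Elane were not called (1.93 and 2.62, edgeR adjusted p = 0.635 and 0.533), against 5.85 and 5.99 with it. For S100a8, S100a9 and Ngp the log2 changes without control libraries 1 and 2 were -1.18, -1.72 and -0.41 (edgeR adjusted p = 0.479, 0.343 and 0.823). Dividing cell markers summed to 349 to 1819 CPM at day 14, 168 to 636 CPM at day 7 and 263 to 3877 CPM in controls. None of the 6 passed in any comparison with all libraries, and their median log2 change was 1.8 at day 14 against day 7. Mki67 and Aurkb were called higher at day 14 against control without control libraries 1 and 2. The part of these cells in the members' levels was not tested.

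The surroundings of the members on the chromosomes bear on how reads could be assigned, since the strand setting of the counting was not given in the sources used here. 4632428N05Rik lies on the plus strand within Cdh23 (chromosome 10, 60302748 to 60696490, minus strand), without overlap of their exons. Cdh23, a cadherin of the inner ear, rose where 4632428N05Rik fell, averaging 11.6 ± 4.53 CPM at day 14 and 2.75 ± 0.982 CPM in controls (log2 change 2.08 ± 0.51, edgeR adjusted p = 0.0375), a call lost without day 14 library 4 (edgeR adjusted p = 0.072). Cd160 shares exon sequence with Pdzk1 on the other strand, which had at most 1.04 CPM on average in any group. Lag3 lies beside Cd4 and Ptms, and neither was called at day 14 (log2 changes -0.08 and -0.62). Ctla4 lies between Cd28 and Icos, which had log2 changes of -0.57 and 0.35 without a call. Of the other neighbours Atg3, beside Btla, and Rnf115, beside Cd160, fell at day 14 (-0.61 and -0.44, edgeR adjusted p = 0.0186 and 0.0302), and without day 14 library 4 the call of Atg3 was lost (edgeR adjusted p = 0.0584).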

How the data were processed

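Gene counts per library are those the authors deposited, whole-number read counts made with HTSeq 0.6.1 per the submitters' processing notes, which also name bcl2fastq 2.20.0.422, cutadapt 1.8.1 and genome build mm10. No aligner, annotation or strand setting is named in the sources used here. Libraries were made from total RNA with a NuGEN kit per the labels' protocols. The table's 5 closing lines name no gene, held 57.6% to 77.9% of each library, and stayed out of library sizes and tests. No columns were identical.

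The quasi-likelihood test of edgeR 4.0.16 in R 4.3.3 was run on all 16 libraries together. Low counts were removed with filterByExpr on the groups, scaling was by TMM, and p-values were Benjamini-Hochberg adjusted over 18430 genes, called under 0.05. Libraries of a group varied by a common biological coefficient of 54.5%. An SE was derived from the size of the log2 change and its F statistic. Replicate numbers come from titles and mark different mice. On simulated counts with 200 changed genes, 67%, 68% and 66% of changes of 1 on the log2 scale were recovered for day 14 against control, day 7 against control and day 14 against day 7, with 1, 3 and 6 false calls. Those simulated libraries vary independently, so real recovery may be lower. Counts of few reads carry counting error beside the spread between mice.

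The 9 genes, the 15 lists (134 of 135 genes found, 5 by an older symbol) and the tests were chosen with earlier results of these data known. All 9 members are named. Of each list the called genes are named, or else its most abundant gene, with further examples chosen after their values were seen. The most abundant CD8, natural killer, macrophage and dendritic cell markers are not reported here. The other rules named the 2 genes most like each member (some are not reported here), the nearest annotated neighbours, Foxp3, Cxcr5, Cd4 and Cd3e. S100a8 and Mki67 are given to describe control libraries 1 and 2. Ratios used a pseudocount of 1 CPM and exact permutation tests (SciPy 1.17.1). Alternatives used DESeq2 1.42.0, limma-voom (limma 3.58.1), other scalings and filters, covariates and left-out libraries. For genes other than the members, leaving out control libraries 1 and 2 or day 14 library 4 was chosen after seeing the data.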

Additional observations from a re-analysis of the deposited data

Results flagged for a closer look

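Havcr2 in control library 2, at 9.04 CPM, was farther from the other 4 controls (0.344 to 2.81 CPM) than Dixon's criterion allows. It was 1 of 36 groups of values examined, and chance flags about 1 in 20. The same library had the highest neutrophil sum (2072 CPM) and macrophage sum (583 CPM) of all libraries, and the part of these cells was not tested.

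The change from control differed between day 14 and day 7 for 2 members, which is the comparison of day 14 with day 7. Pdcd1 was higher by a log2 change of 1.53 and 4632428N05Rik had a log2 change of -0.51 (edgeR adjusted p = 0.0450 and 0.0400). Over the 21 alternatives the edgeR, limma or DESeq2 adjusted p ranged over 0.00121 to 0.204 for Pdcd1 and 0.00286 to 0.207 for 4632428N05Rik.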

How the results depend on the processing

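Under the alternatives tried for the 9 members in 3 comparisons, 573 values in all, 473 kept direction and side of the threshold, 44 lost a call, 25 gained one and 31 changed sign. Those that changed sign were not called. The cause of these differences was not tested.

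For day 14 against control, with 1 member higher and 1 lower, DESeq2, the filter at a mean of 5 CPM and library totals each called 4 members higher, limma-voom 3, and the fit without control libraries 1 and 2 called 2. The fit to only the 2 groups compared, the replicate block and the covariate for reads outside gene models called 0 higher and 0 lower. The filter at a mean of 5 CPM, library totals, no filter and RLE scaling called 0 lower. Leaving out 1 library gave 0 to 4 members higher and 0 to 1 lower. For day 7 against control DESeq2 called 1 member higher, and leaving out 1 library gave 0 to 1 higher and 0 lower. For day 14 against day 7 DESeq2 and the covariate for Y-linked transcripts called 3 members higher and limma-voom 2. The Y-linked covariate is the summed level of 4 genes per library, and the part of the animals' sex was not tested. With it Lag3 and Tigit passed against day 7 (edgeR adjusted p = 0.0446 and 0.0486). Against control they did not (edgeR adjusted p = 0.0552 and 0.0523). The covariate for reads outside gene models and the replicate block called 0 higher and 0 lower, and library totals and RLE scaling 0 lower. Leaving out 1 library gave 0 to 2 higher and 0 to 1 lower. Havcr2 was not tested under the filter at a mean of 5 CPM.

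Over all genes at day 14 against control (246 higher and 331 lower), DESeq2 gave 852 and 699, library totals 699 and 100, the fit to only the 2 groups compared 4 and 0, the replicate block 25 and 21, and the covariate for reads outside gene models 1 and 0. The filter at a mean of 5 CPM gave 375 higher, limma-voom 538 higher, the fit without control libraries 1 and 2 gave 456 higher, and no filter 210 lower. Leaving out 1 library gave 42 to 487 higher and 18 to 999 lower. At day 7 against control (2 and 0) DESeq2 gave 499 and 1104, the covariate for Y-linked transcripts 82 and 251, the filter at a mean of 5 CPM 73 and 90, and the replicate block 6 and 29. The covariate for reads outside gene models and the fit without control libraries 1 and 2 gave 0 higher, the fit to only the 2 groups compared gave 1 lower, and leaving out 1 library 0 to 429 higher and 0 to 1026 lower. At day 14 against day 7 (76 and 102) DESeq2 gave 354 and 361, the covariate for Y-linked transcripts 521 and 445, the fit to only the 2 groups compared 316 and 396, the covariate for reads outside gene models 39 and 46, library totals 150 and 41, and the replicate block 9 and 19. The filter at a mean of 5 CPM gave 153 higher, and leaving out 1 library 17 to 101 higher and 8 to 276 lower. Library totals moved the median log2 change of all genes at day 14 against control to 0.32, against 0.12 with TMM.

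Changes of sign at day 14 against control were those of Ctla4 (-0.12) and Havcr2 (-0.30) with the covariate for reads outside gene models, and of Cd160 with library totals (0.08), the replicate block (0.02), that covariate (0.28) and leaving out 1 library (-0.29 to 0.04). At day 7 against control Pdcd1 (-0.10), Lag3 (-0.08) and 4632428N05Rik (-0.04) turned without control libraries 1 and 2. Ctla4 turned with the covariates for reads outside gene models (-0.36) and for Y-linked transcripts (-0.02), and Tigit with limma-voom (-0.03). Leaving out 1 library there gave ranges of -0.18 to 0.50 for Lag3, -0.23 to 0.36 for Ctla4, -0.26 to 0.51 for Tigit and -0.01 to 0.17 for 4632428N05Rik. At day 14 against day 7 the replicate block turned Ctla4 (-0.04), Btla (-0.01) and Tox (-0.08), and the covariate for reads outside gene models Btla (-0.01). Leaving out 1 library gave -0.08 to 0.16 for Btla and -0.03 to 0.12 for Tox.

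Without control libraries 1 and 2 the difference in the log2 ratio of Ctla4 to Foxp3 was 0.41 at day 14 and 0.54 at day 7 against control, that of Tigit to Foxp3 0.21 at day 7, and that of Pdcd1 to Cxcr5 -0.12 at day 14. Leaving out 1 library gave, for Ctla4 to Foxp3, -0.46 to 0.08 (day 14 against control), -0.38 to 0.08 (day 14 against day 7) and -0.33 to 0.21 (day 7 against control). For Tigit to Foxp3 at day 7 against control it gave -0.37 to 0.05. No ratio passed under any alternative. Without control libraries 1 and 2 the groups at day 14 against control were too small for any ratio to pass. Leaving out 1 library also raised the smallest possible p. In the comparisons of day 14 the lack of a pass in these fits therefore says nothing about the ratios. At day 7 against control it does not show equal change either.

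The labels state no pairing of mice by replicate number. Libraries with the same number had correlations of their deviations from the group means between -0.34 and 0.30. Libraries with different numbers were not compared in this way, so these values do not settle whether the numbers share a batch. With the replicate block the log2 change of Pdcd1 was 2.02 at day 14 against control (edgeR adjusted p = 0.0607) and that of 4632428N05Rik -0.44 (edgeR adjusted p = 0.131). Depth limits Havcr2 most, with as few as 8 reads in a library.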

Other observations

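Ctla4 split the day 7 and control libraries, with low values in the last-numbered libraries of both groups. Whether these numbers go with a batch was not tested. Ctla4 stood at 34.7 and 48.3 CPM in day 7 libraries 6 and 7 and at 36.1 and 35.1 CPM in control libraries 4 and 5. The other 12 libraries held 99.9 to 224 CPM. Rgs1, which was among the genes most like it, stood at 26.8 and 33.0 CPM in the same day 7 libraries and at 35.7 and 29.8 CPM in the same controls, against 46.5 to 137 CPM elsewhere. Bhlhe40, also among the genes most like Ctla4, stood at 19.1 and 27.9 CPM and at 21.4 and 27.1 CPM there, against 33.3 to 142 CPM elsewhere. Rgs1 and Bhlhe40 were chosen for likeness to Ctla4 over these same libraries, so their low values there are no separate result. Nr4a1, chosen after its values were seen, stood at 113 and 140 CPM and at 130 and 128 CPM there, against 198 to 358 CPM in the other day 7 libraries and 251 to 430 CPM in the other controls. The day 14 libraries held 95.3 to 125 CPM of Nr4a1 and 99.9 to 174 CPM of Ctla4, so the pair of genes did not go together at that time.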
